A study of Mus musculus with 6 samples.

Results

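The genes studied here belong to the integrated stress response and its effector, the transcription factor ATF4, and were followed in mouse embryonic stem (ES) cells. They are Atf4, Ddit3, Trib3, Chac1, Asns, Psat1, Phgdh, Slc7a5, Slc7a11 and Slc3a2. They were chosen by symbol, with earlier results of these data known, and all 10 were found among the 23420 rows of the count table. The cells were kept under self-renewal conditions and had stably taken up a lentivirus. The virus expressed wild-type KBP, the Kif1-binding protein, in replicates 1, 2 and 3, here wild-type libraries 1 to 3. It expressed KBP(KK/RR), a mutant that the labels call stable, in replicates 4, 5 and 6, here mutant libraries 4 to 6. All cells therefore carried a KBP virus, and untransduced cells were not among the samples. The sources used here do not give the promoter of the virus, the strain of the cells or whether the replicates were separate cultures, so p-values measure the spread between these libraries, which may be technical.

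The integrated stress response couples amino acid shortage, unfolded protein, heme deficiency and viral RNA to translation. Kinases that sense these states phosphorylate the initiation factor eIF2, which lowers general translation but raises translation of the Atf4 messenger RNA through its upstream open reading frames. ATF4 protein then binds C/EBP-ATF response elements and raises genes of amino acid synthesis, amino acid uptake and stress feedback. Because much of the control of ATF4 itself is translational, the level of its transcript is not a measure of its protein, and the transcripts of its targets are the usual RNA readout of the response.

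The response element has the core TGATGNAA, and it was looked for on both strands of the RefSeq promoter windows of GRCm38.p6, which run from 250 bases before a start to 50 after it. A window was given for 9 of the 10 members, all but Slc7a5, and 4 of these 9 genes held the core: Asns, Chac1, Slc7a11 and Trib3. Over all 27025 genes with a window, 4.51% held it. Counted by window, 3.97% of all 32851 held it, and 0.895% held the form TGATGCAA, which is contained in the first. The Trib3 match lies after the start. The other 3 are shown 5′ to 3′ on the strand of the gene, because elements of this form are what ATF4 is known to bind, with the matching bases in capitals.
Asns (chr6:7693214-7693243, minus strand): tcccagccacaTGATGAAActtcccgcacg
Chac1 (chr2:119351038-119351067, plus strand): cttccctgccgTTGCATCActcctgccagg
Slc7a11 (chr3:50443642-50443690, minus strand): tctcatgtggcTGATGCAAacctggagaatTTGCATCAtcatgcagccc
The first base of the match is 23 bases before the start in Asns and 193 in Chac1, where it reads on the opposite strand. Slc7a11 holds a pair of matches in opposite orientation, 66 and 47 bases before the start of this window, which lies inside the span of the gene given further on and not at its outer end. A match is a run of letters and says nothing of binding in these cells.

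In these libraries 1 of the 10 members changed. Slc7a5 fell and 0 rose. Of the 14340 genes tested, 3.12% were called in either direction, 2.07% as lower and 1.05% as higher. The test was edgeR's quasi-likelihood test, with p-values adjusted over all genes tested by the Benjamini-Hochberg method and called under 0.05. Before adjustment, p was under 0.05 for 3 members (Slc7a5, Slc3a2 and Atf4, all with lower means in KBP(KK/RR) cells), beside 18.6% of all genes tested. For these 3 members the libraries of one group all lay on one side of the other, which held for 22.4% of all genes tested. Slc7a5 alone was called by limma-voom over the 10 members and by DESeq2 over 7 of them, since Chac1, Ddit3 and Slc7a11 had no adjusted p there. The median log2 fold change of the members, KBP(KK/RR) minus wild-type KBP, was -0.05, beside -0.0022 for all genes tested, and 7 of the 10 were negative, as were 50.8% of all genes. The number negative was 5 without mutant library 4 and 10 without wild-type library 2. All 10 passed the filter on low counts.

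Library totals ran from 24131743 to 32160411 counts. On the first principal component (31.1% of the variance) the groups separated, and on the second (20.8%) wild-type library 3 stood apart. The KBP gene (2510003E04Rik in the table) lay between 47.0 and 49.6 CPM in wild-type KBP and between 53.9 and 59.6 CPM in KBP(KK/RR) libraries. CPM are counts scaled by library size and further by the trimmed mean of M-values, TMM. This gene was itself called as higher in KBP(KK/RR) libraries (log2 fold change 0.23, SE 0.05, edgeR adjusted p = 0.0133). Whether viral transcripts are counted in this row is not known here, and the counts do not separate them from endogenous ones. ES cell markers were abundant, with a summed level of 6022 to 6128 CPM in wild-type KBP and 5902 to 6169 CPM in KBP(KK/RR) libraries over 10 genes. The corresponding sums were 24.7 to 28.2 and 25.5 to 25.9 CPM for 10 feeder fibroblast markers, of which Lum and Postn were at 0 in some libraries. They were 60.1 to 68.9 and 60.2 to 68.3 CPM for 10 trophectoderm markers (Elf5 at 0 in some libraries) and 212 to 217 and 207 to 215 CPM for 10 neural markers (Neurog2 at 0 in some). For 10 primitive endoderm markers, none at 0, the sum was 685 to 788 CPM in wild-type KBP and 591 to 644 CPM in KBP(KK/RR) libraries, and 2 of 9 tested fell (Pdgfra and Col4a1). In the other lists, 1 of 10 ES cell markers (Tfcp2l1) and 1 of 6 neural markers tested (Ncam1) fell. Of the feeder fibroblast and trophectoderm markers tested, 0 of 6 and 0 of 9 were called. The share over all genes tested was 3.12% in either direction. The part of these cells in the differences below was not tested, and in bulk RNA fewer cells of a type and less RNA per cell cannot be told apart.

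Atf4 (chromosome 15, 80255184 to 80257545 on GRCm38), the effector of the response, was among the abundant members. It measured 214, 209 and 211 CPM with wild-type KBP and 195, 200 and 200 CPM with KBP(KK/RR). All 3 mutant libraries lay below all 3 wild-type ones, and the gap between the groups was larger than the spread within either. The means were 211 ± 2.84 and 198 ± 3.23 CPM (SD, n = 3 each), a log2 fold change of -0.09 (SE 0.04, 95% interval -0.17 to -0.01). The difference did not pass the threshold over all genes (edgeR adjusted p = 0.198), and over the 16 alternatives its sign was always negative and it was never called. Among these 16, the reads recovered from the authors' normalized values equal the raw counts. That alternative therefore had to repeat the main analysis, here and below.

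Downstream of Atf4, 3 stress genes gave no call. Ddit3 (chromosome 10, 127290793 to 127296291) encodes CHOP, the transcription factor that carries prolonged stress towards cell death. It measured 5.86, 5.80 and 5.80 CPM in wild-type KBP and 5.28, 5.92 and 5.76 CPM in KBP(KK/RR) libraries. The mutant libraries lay on both sides of the wild-type ones. Its log2 fold change was -0.04 (95% interval -0.25 to 0.16, edgeR adjusted p = 0.851), and without mutant library 4 it was 0.0040.

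Trib3 (chromosome 2, 152337425 to 152344060) encodes a pseudokinase that ATF4 and CHOP induce and that restrains them in turn. It measured 26.8, 24.2 and 25.8 CPM in wild-type KBP and 21.98, 24.6 and 26.9 CPM in KBP(KK/RR) libraries, so the lowest and the highest library were both mutant ones. Its log2 fold change was -0.06 (95% interval -0.20 to 0.08, edgeR adjusted p = 0.681). Without mutant library 4, the lowest library, it was 0.01.

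Chac1 (chromosome 2, 119351242 to 119354326) encodes an enzyme that degrades glutathione and is a target of the ATF4 and CHOP branch. Its values were 6.32, 6.73 and 6.84 CPM in wild-type KBP and 5.28, 6.82 and 5.35 CPM in KBP(KK/RR) libraries. Replicates 4 and 6 of the mutant were below every wild-type library, while replicate 5 was among the highest. This left a log2 fold change of -0.20 with a wide 95% interval of -0.42 to 0.02 (edgeR adjusted p = 0.328). A fold near that of Slc7a5 was thus not resolved for Chac1. It had 157 to 216 counts per library where Slc7a5 had 7827 to 11365. Without mutant library 5 its log2 fold change was -0.32, and it was still not called (edgeR adjusted p = 0.137). The part of depth and of that library in the missing call was not tested.

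**Figure D1:**
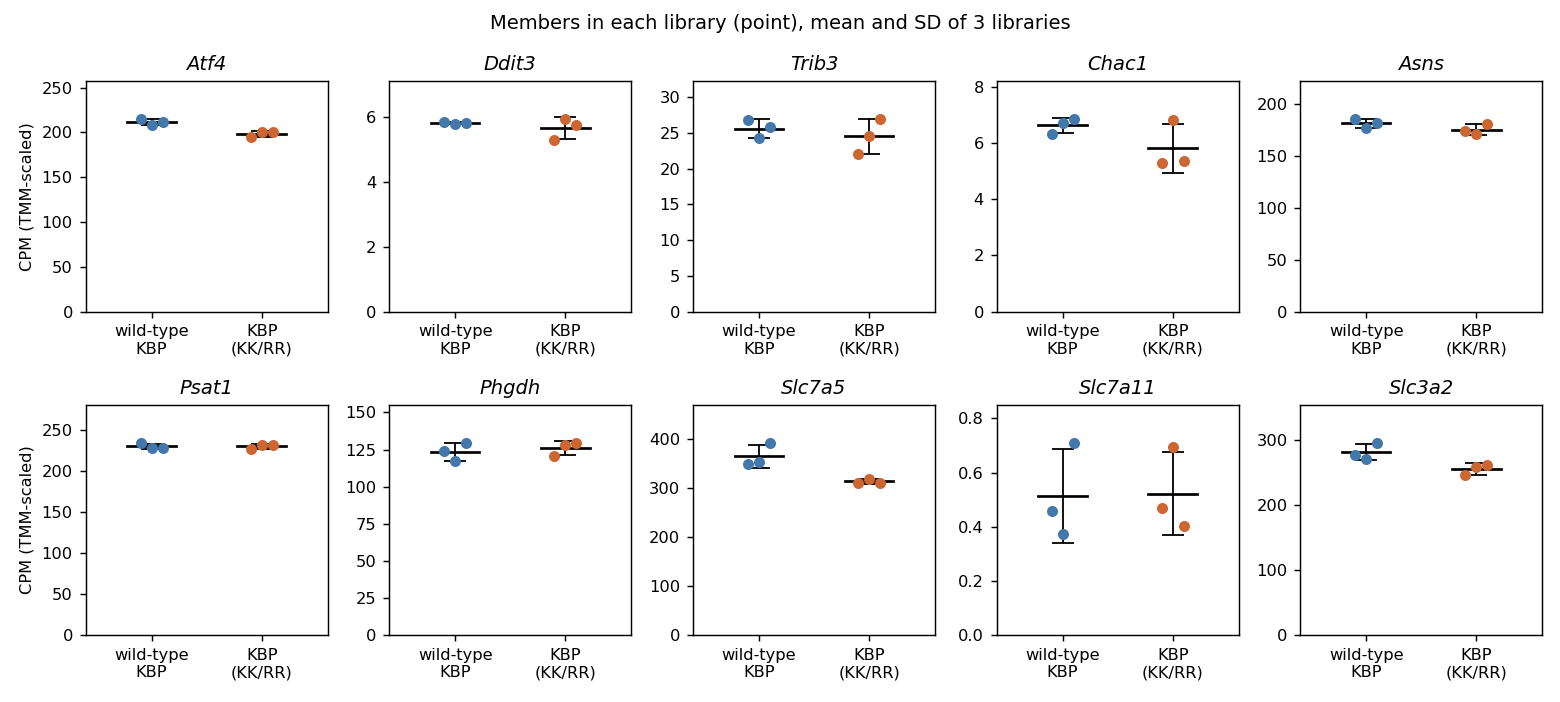
TMM-scaled CPM (vertical axes from 0) of each of the 10 members in the 3 wild-type KBP libraries (blue points) and the 3 KBP(KK/RR) libraries (orange points), with the mean (bar) and SD (whiskers) of each group. The groups do not overlap for Atf4, Slc7a5 and Slc3a2 and overlap for the other 7 members.

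The enzymes of amino acid synthesis were nearly equal in the groups. Asns (chromosome 6, 7675165 to 7693209), asparagine synthetase, measured 185, 178 and 182 CPM in wild-type KBP and 174, 172 and 181 CPM in KBP(KK/RR) libraries. Mutant replicate 6 lay within the wild-type range and the other two just below it. The log2 fold change was -0.05 (SE 0.04, 95% interval -0.13 to 0.03, edgeR adjusted p = 0.552).

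Phgdh and Psat1 encode the first and the second enzyme of serine synthesis from a glycolytic intermediate. Phgdh (chromosome 3, 98313171 to 98339969) measured 124, 117 and 129 CPM in wild-type KBP and 121, 128 and 129 CPM in KBP(KK/RR) libraries. Psat1 (chromosome 19, 15905123 to 15925059) measured 234, 228 and 229 CPM and 227, 232 and 232 CPM. For both genes the 2 groups covered almost the same range. The log2 fold change was 0.03 for Phgdh (95% interval -0.06 to 0.12, edgeR adjusted p = 0.773) and 3.6e-04 for Psat1 (-0.08 to 0.08, adjusted p = 0.997). For Asns, Phgdh and Psat1 the intervals leave room for differences of at most 0.13 in size on the log2 scale. The sign for Psat1 was negative in 8 of the 16 alternatives.

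The member that fell serves amino acid uptake. Slc7a5 encodes LAT1, the light chain that carries leucine and other large neutral amino acids, and Slc3a2 encodes the heavy chain CD98, which LAT1 and several related light chains need to reach the cell surface. Slc7a5 (chromosome 8, 121881146 to 121907686) measured 349, 354 and 392 CPM in wild-type KBP and 311, 320 and 310 CPM in KBP(KK/RR) libraries. Wild-type KBP replicate 3, the library that stood apart on the second component, was the highest, and the mutant libraries were close together below all others. The means were 365 ± 23.3 and 314 ± 5.13 CPM (SD, n = 3 each). Slc7a5 fell, with a log2 fold change of -0.22 (SE 0.04, 95% interval -0.31 to -0.13, edgeR adjusted p = 0.00572), or to 0.860 of the wild-type level. Without wild-type library 3 the log2 fold change was -0.16 and the call was kept (adjusted p = 0.0300), whereas without mutant library 6 it was -0.21 and the call was lost (adjusted p = 0.0614).

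Slc3a2 (chromosome 19, 8706882 to 8723369) measured 277, 271 and 295 CPM in wild-type KBP and 245, 259 and 261 CPM in KBP(KK/RR) libraries. As for Slc7a5, wild-type library 3 was the highest, and the groups did not overlap. The means were 281 ± 12.5 and 255 ± 8.64 CPM, a log2 fold change of -0.14 (SE 0.04, 95% interval -0.22 to -0.05) that did not pass the threshold (edgeR adjusted p = 0.0705). Slc3a2 was called with no filter on low counts (adjusted p = 0.0234) and with a trend on transcript length and GC content removed from each library (adjusted p = 0.00900), and in none of the other 14 alternatives.

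Slc7a11, another partner of CD98, encodes the cystine and glutamate exchanger xCT, which feeds glutathione synthesis. It lies on chromosome 3, 50364936 to 50499087. It was close to the limit of what was tested, with 12, 12 and 17 counts in wild-type KBP and 14, 17 and 12 counts in KBP(KK/RR) libraries. These are 0.459, 0.374 and 0.709 CPM and 0.470, 0.694 and 0.404 CPM, and neither group was higher throughout. The log2 fold change was 0.04 with a 95% interval of -0.66 to 0.73 (edgeR adjusted p = 0.969), and its sign was negative without wild-type library 1 or 2 or mutant library 5. The interval includes a difference of the size seen for Slc7a5, so such a difference was not resolved. The part of depth in this was not tested.

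**Figure D2:**
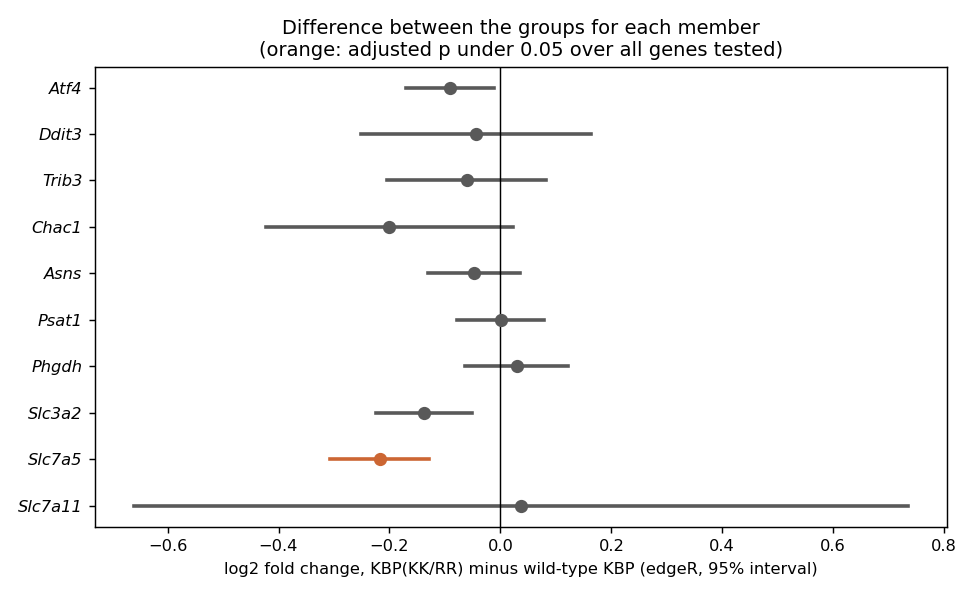
Log2 fold change (KBP(KK/RR) minus wild-type KBP, horizontal axis) of each member with its 95% interval from the edgeR fit. Slc7a5, in orange, is the member called, at -0.22; the intervals of Slc3a2 and Atf4 lie below 0 but neither passes after adjustment, and that of Slc7a11 runs from -0.66 to 0.73.

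**Figure D3:**
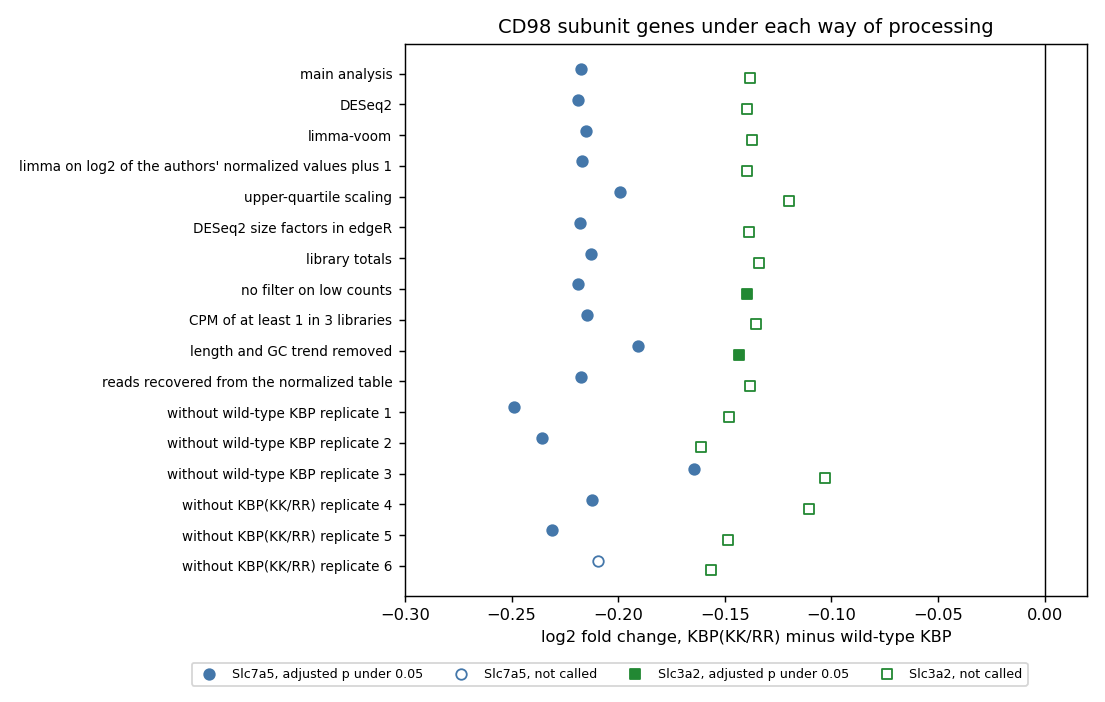
Log2 fold change of Slc7a5 (circles) and Slc3a2 (squares) in the main analysis and under each of the 16 alternatives, filled where the adjusted p is under 0.05. All values lie below 0. Slc7a5 is open without mutant library 6, and Slc3a2 is filled with no filter on low counts and with the length and GC trend removed. The recovered reads are the same counts as in the main analysis and repeat it.

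Per kilobase of the longest annotated transcript, the members fell into a high and a low group. The mean over the 6 libraries was 102 CPM per kilobase for Atf4, 96.4 for Slc7a5, 95.3 for Slc3a2, 88.6 for Asns and 87.9 for Psat1. Each of these 5 overlapped the next in its range over the libraries, so the order of neighbours is not resolved, whereas every library of Atf4 lay above every library of Asns and of Psat1. Phgdh followed at 65.9, and its range lay apart from that of Psat1. The stress genes were far lower, with Trib3 at 12.4, Ddit3 at 5.92 and Chac1 at 3.80 CPM per kilobase, each range apart from the next. Slc7a11 was the lowest at 0.0562 CPM per kilobase. Among all tested genes with a transcript length, Atf4 stood at the 95.7th percentile of level, Trib3 at the 63.7th, Ddit3 at the 47.8th and Chac1 at the 39.6th. Slc7a11 was in the lowest 0.331% of these genes. Asparagine and serine synthesis genes and the LAT1 pair were thus strongly expressed in both groups while CHOP and Chac1 transcripts were near or below the middle of all tested genes.

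Light chains of CD98 can be set against the heavy chain per kilobase. The ratio of Slc7a5 to Slc3a2 was 1.04 ± 0.0288 in wild-type KBP and 0.984 ± 0.0335 in KBP(KK/RR) libraries (SD, n = 3 each), and the groups overlapped. That of Slc7a7, a y+LAT light chain, was 0.664 ± 0.00918 and 0.662 ± 0.0197, and that of Slc7a6, another y+LAT light chain, 0.219 ± 0.00128 and 0.232 ± 0.0144. A flat ratio is not a flat level. Slc7a7 itself measured 151 ± 8.78 and 137 ± 3.61 CPM without overlap (log2 fold change -0.14, edgeR adjusted p = 0.0800). It was called as lower with no filter on low counts and with the length and GC trend removed. Slc7a8 and Slc7a11 were at 0.00283 and 5.5e-04 of Slc3a2 in wild-type KBP cells. Among the 5 light chains examined, Slc7a5 and then Slc7a7 had the highest levels per kilobase in both groups.

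Libraries were also compared one by one, each member relative to its own wild-type mean on the log2 scale. The median over the 10 members was 0.01, -0.04 and 0.03 in wild-type libraries 1, 2 and 3 and -0.13, -0.02 and -0.05 in mutant libraries 4, 5 and 6. In mutant replicate 4 all 10 members lay below their wild-type mean, in replicate 6 there were 7, and in replicate 5 there were 5. Wild-type KBP replicate 2 also had 9 of 10 members below the mean of its own group. The mutant libraries were therefore not uniform over the members, and only Atf4, Slc7a5, Slc3a2 and Asns were below the wild-type mean in all 3 of them.

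**Figure D4:**
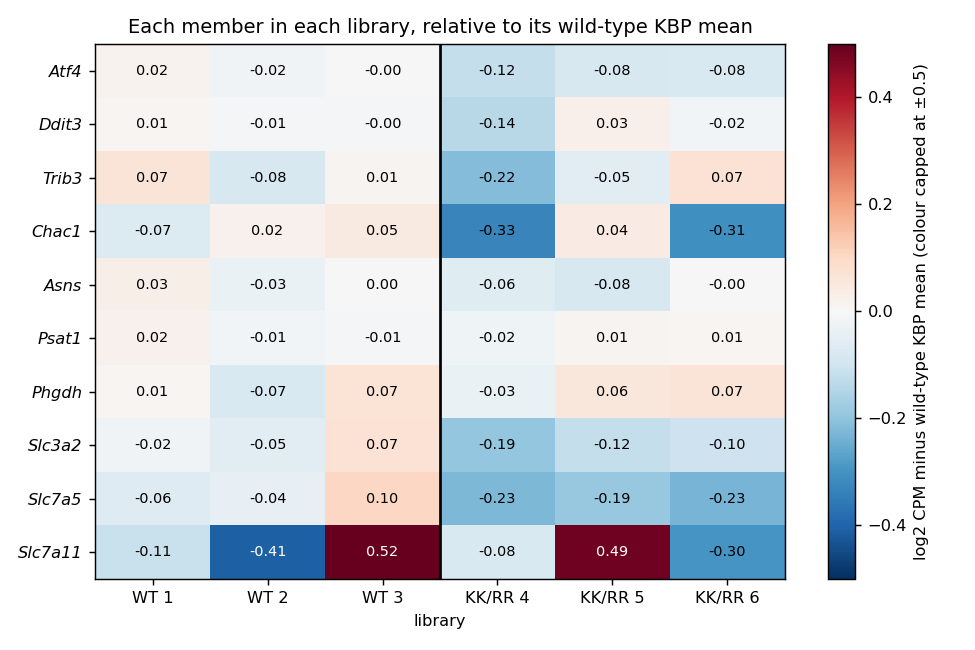
Log2 CPM of each member (rows) in each library (columns) minus its mean over the wild-type KBP libraries, as colour and number, with the groups divided by the black line. The rows of Slc3a2, Slc7a5 and Atf4 are negative in all 3 KBP(KK/RR) libraries, Chac1 is low in replicates 4 and 6 only, and Slc7a11, with 12 to 17 counts, scatters in both groups.

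The neighbouring genes of the pathway were read from 8 lists, whose counts follow here and in the next paragraphs. The lists were chosen with earlier results of these data known. Their counts beside the shares of all genes are therefore a description and no independent evidence. Among 16 other amino acid transporters tested, 2 fell and 0 rose, beside 2.07% called as lower and 1.05% as higher of all genes tested. Of the 16, 13 had a negative log2 fold change and 10 an unadjusted p under 0.05. Over all genes tested, 50.8% were negative and 18.6% had an unadjusted p under 0.05. The median log2 fold change of the list was -0.14. Slc7a1 encodes CAT1, a carrier of arginine and lysine. It measured 168, 180 and 185 CPM in wild-type KBP and 148, 140 and 131 CPM in KBP(KK/RR) libraries. The groups did not overlap, and the level fell by 0.35 on the log2 scale (SE 0.05, edgeR adjusted p = 2.6e-04). Slc1a5 encodes ASCT2, a carrier of glutamine and other neutral amino acids. It measured 62.7, 61.6 and 65.6 CPM and 52.1, 53.8 and 54.7 CPM, again without overlap, with a log2 fold change of -0.24 (SE 0.05, adjusted p = 0.00572). Both fell in all 16 alternatives, among which the recovered reads had to repeat the main analysis. The number that fell was 5 with no filter on low counts, 4 with the length and GC trend removed and 4 without mutant library 4. The glycine carrier gene Slc6a9 had a log2 fold change of -0.40 from only 5.80 ± 0.398 and 4.40 ± 0.498 CPM (adjusted p = 0.0553). Slc38a2, the most abundant transporter of the list and a well-known ATF4 target, measured 460 ± 13.7 and 462 ± 11.6 CPM (log2 fold change 0.0056, adjusted p = 0.959). The median of this list was negative in every alternative, from -0.15 to -0.11. The counts are a description of these lists, and the transporters were not set against other genes by a test.

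Upstream of ATF4, 15 genes of the eIF2 kinases, the eIF2 phosphatase and the exchange factor eIF2B were tested. Of these 1 rose and 1 fell, beside 3.12% of all genes tested called in either direction, and the median log2 fold change was 0.02. The 4 kinase genes were not called. Gcn1l1, now Gcn1, whose product activates the amino acid sensing kinase GCN2, fell from 439 ± 18.1 to 383 ± 12.8 CPM (log2 fold change -0.20, SE 0.04, edgeR adjusted p = 0.00817). Impact, whose product competes for GCN1 and so restrains GCN2, rose from 152 ± 0.706 to 170 ± 6.20 CPM (0.16, SE 0.04, adjusted p = 0.0354). The Gcn1l1 value moved to -0.04 with the length and GC trend removed (adjusted p = 0.555), and its call was also lost without wild-type library 2 (0.0886) or mutant library 6 (0.0960). The Impact call was lost without wild-type library 1 (adjusted p = 0.0704), 2 (0.140) or 3 (0.0739) or mutant library 6 (0.188). The phosphatase subunit gene Ppp1r15b measured 228 ± 1.01 and 214 ± 4.41 CPM (-0.09, adjusted p = 0.191).

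Other transcription factors and enzymes of the response gave 0 calls, beside 3.12% of all genes tested. Of 11 ATF4-related transcription factor genes, which include Atf3, Atf5 and Cebpb, edgeR and limma-voom called 0, DESeq2 called 0 but gave no adjusted p to 5, and 0 had an unadjusted p under 0.05 in edgeR (median log2 fold change -0.03). The most abundant of them, Nfe2l1, measured 234 ± 11.9 and 224 ± 2.73 CPM. Of 17 enzymes of amino acid and one-carbon metabolism, all 3 tools called 0, DESeq2 with no adjusted p for 1, and 2 had an unadjusted p under 0.05, Aldh18a1 of proline synthesis (log2 fold change -0.11) and Shmt1 of serine and glycine conversion (0.09). The list median was 0.0013, and the most abundant member Bcat1, a branched-chain aminotransferase, was at 411 CPM in both groups. Of 13 cytosolic aminoacyl-tRNA synthetase and tRNA export genes, many of them known ATF4 targets, all 3 tools called 0. Iars (-0.12, edgeR adjusted p = 0.118) and Sars (0.12, adjusted p = 0.113), with an unadjusted p under 0.05, had opposite signs, and the median was -0.0027. Both were called with the length and GC trend removed, and Iars also without mutant library 4 (-0.16, adjusted p = 0.0224).

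Among 11 tested stress outputs of ATF4 and CHOP, 1 rose and 0 fell, beside 1.05% and 2.07% of all genes tested. The median log2 fold change was -0.01. The riser was Ddit4, whose product REDD1 inhibits mTORC1 and is also induced by hypoxia, at 52.8, 53.8 and 52.9 CPM in wild-type KBP and 58.5, 64.3 and 64.6 CPM in KBP(KK/RR) libraries (0.23, SE 0.05, edgeR adjusted p = 0.0107). It was no longer called without mutant library 5 (adjusted p = 0.0570) or 6 (0.0981). With the trend removed, and also without mutant library 4, 1 gene of this list fell beside Ddit4 rising (Ero1l, an oxidase of the endoplasmic reticulum). The secreted factor gene Fgf21 did not pass the filter on low counts.

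In the ATF6 and XBP1 arm of the unfolded protein response, which raises chaperones of the endoplasmic reticulum, edgeR, DESeq2 and limma-voom called 0 of 21 genes, DESeq2 with no adjusted p for 1. In edgeR 20 of the 21 had a negative log2 fold change, beside 50.8% of all genes tested. An unadjusted p under 0.05 was given to 9, beside 18.6% of all genes tested, and the median was -0.06. The calcium-binding chaperone gene Calr measured 938 ± 32.4 and 867 ± 1.34 CPM (-0.11, edgeR adjusted p = 0.0965). Syvn1 and Sel1l, of the ubiquitin ligase that clears misfolded proteins, were both at -0.15 (adjusted p 0.0924 and 0.0927). Among the alternatives, 3 genes of this arm were called as lower with the length and GC trend removed and 3 with no filter on low counts. Sel1l was called without wild-type library 1 (adjusted p = 0.0397) and Syvn1 without mutant library 5 (adjusted p = 0.0494).

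Glutathione and NRF2 genes, which share Slc7a11 as a target with ATF4, all had a positive log2 fold change in the 10 tested, with a median of 0.09. Over all genes tested, 50.8% of values were negative. Of the 10, 1 rose, beside 1.05% of all genes tested. With the length and GC trend removed 2 of the 10 were negative, and 1 was negative without wild-type library 3 and without mutant library 6. Called as higher were 2 with the trend removed (Ggct and Gpx4) and 2 without wild-type library 3 (Ggct and Hmox1). The gene that rose in the main analysis was Ggct, which acts on products of glutathione breakdown. It measured 15.3, 15.2 and 13.5 CPM in wild-type KBP and 18.2, 18.7 and 18.5 CPM in KBP(KK/RR) libraries (0.33, SE 0.07, edgeR adjusted p = 0.00854). It was no longer called without mutant library 6 (adjusted p = 0.0562). Hmox1 (0.13, edgeR adjusted p = 0.105) and Txnrd1 (0.10, adjusted p = 0.166) did not pass in the main analysis. Without wild-type library 3 Hmox1 was at 0.17 (adjusted p = 0.0448).

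**Figure D5:**
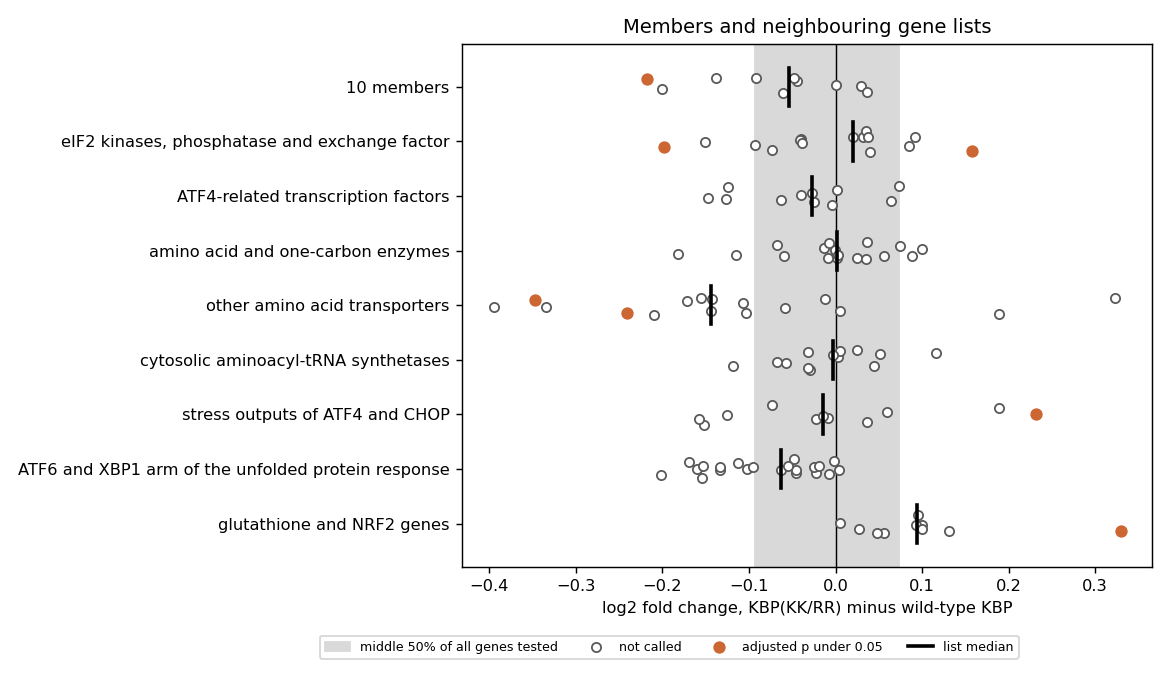
Log2 fold change (KBP(KK/RR) minus wild-type KBP, horizontal axis) of the 10 members and of each tested gene in the 8 neighbouring lists, with the list median (black bar), called genes in orange and the middle 50% of all genes tested shaded. The list medians run from -0.14 for the transporters to 0.09 for the glutathione genes. The shading describes single genes and is no measure for a median.

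The genes whose profile over the 6 libraries was most like that of Slc7a5 were sought among 5971 genes with a mean of at least 5 log2 CPM, by the root mean square difference of log2 CPM after each gene was centred on its own mean. The closest were Ints1, of the Integrator complex (difference 0.0139), Iqgap3, a scaffold protein gene (0.0196), and Lamb2, a laminin chain gene (0.0201). Slc3a2 stood at rank 109 with a difference of 0.0534, Atf4 at rank 638, Asns at 1549, Psat1 at 2524 and Phgdh at 2949. Of the members above that level, the profile of Slc3a2 was thus closest to that of Slc7a5 and those of the synthesis enzymes farther off. All these profiles come from the same 6 libraries. The difference between the groups enters this measure, so the ranks are not separate from the fold changes given above.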

How the data were processed

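RNA of 3 wild-type KBP and 3 KBP(KK/RR) libraries was depleted of ribosomal RNA and made into ScriptSeq v2 libraries, per the labels' protocols. Per the submitters' processing notes, bcl2fastq, TopHat, HTSeq and DESeq2 and the builds mm10 and GRCm38 were used; no version, annotation or strand setting is stated there or in the labels. The authors deposited raw counts per gene symbol and, in another table, a normalized signal. Judged by the values, the latter is the count over a library's size factor: 100% of its values gave whole reads (tolerance 0.01), 0 of which differed from the raw counts, and a test on these reads, chosen after seeing the data, called 448 genes.

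Counts were tested with edgeR 4.0.16 (R 4.3.3; filterByExpr with a minimum count of 10, TMM, robust quasi-likelihood fit) and adjusted over all 14340 genes tested. SE was taken as the size of the log2 fold change over the root of F. CPM use TMM-scaled totals. Lengths are of the longest GENCODE M21 transcript, coordinates and promoters from RefSeq GRCm38.p6; both are on the build of the notes. Alternatives were DESeq2 1.42.0, limma 3.58.1 (voom, and log2 of the normalized signal plus 1), 3 other scalings, 2 other filters, removal of a length and GC trend (splines, 5 degrees of freedom), the recovered reads, and each library left out. The members and lists were chosen with earlier results of these data known. Besides the members, each list's up to 3 genes of smallest p, its most abundant gene and its called genes were eligible to be named, and the 3 genes most like Slc7a5. Atf3, Atf5, Cebpb, Fgf21, Gpx4, Slc7a6, Slc7a7 and Slc7a8 are named outside this rule, after their values were seen. Replicate pairs of a group differed by more than counting noise (chi-square per degree of freedom 2.70 to 7.17).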

Additional observations from a re-analysis of the deposited data

How the results depend on the processing

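No paired analysis was possible because the groups share no replicate number. The number of genes called, 448 in the main analysis (151 higher and 297 lower; 235 and 205 with upper-quartile scaling), was 966 with no filter on low counts, 687 with a length and GC trend removed, and 122 to 767 when a library was left out. Of the members, 1 was called in the main analysis, 2 with no filter or with the trend removed, and 0 to 1 when a library was left out. Of the genes in the 8 lists, 6 were called, 12 with no filter, 14 with the trend removed, and 2 to 10 when a library was left out. The extremes came without mutant library 6 (122 genes, 0 members, 2 list genes) and mutant library 4 (767 genes, 10 list genes); 174, 277 and 281 genes were called without wild-type library 2, wild-type library 3 and mutant library 5, in that order. The cause was not tested. Signs near 0 turned. Psat1 was at -7.9e-04 in DESeq2, -7.7e-04 in limma on the normalized values, -9.3e-04 with no filter and -0.018 with the trend removed. Bcat1 was at 0.017 with upper-quartile scaling, 0.0036 with library totals, 0.0025 with a filter of 1 CPM in 3 libraries and 0.079 with the trend removed. With a library left out the log2 fold change ran from -0.0059 to 0.012 for Psat1, -0.0047 to 0.063 for Phgdh, -0.076 to 0.0040 for Ddit3, -0.14 to 0.015 for Trib3, -0.19 to 0.31 for Slc7a11, -0.0095 to 0.012 for Bcat1 and -0.019 to 0.025 for Slc38a2. Of the genes most like Slc7a5, Ints1 (-0.05, adjusted p = 0.425) and Lamb2 (-0.13, 0.0844) lost their edgeR calls with the trend removed, and Ints1, Iqgap3 and Lamb2 lost theirs without wild-type library 3 (0.0815, 0.0863 and 0.0683) or mutant library 6 (0.113, 0.130 and 0.106). Iqgap3 (edgeR adjusted p = 0.0648) and Lamb2 (0.0596) also lost theirs without wild-type library 2. Slc7a11 had 12 to 17 counts per library, and a filter of 1 CPM left it untested.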

Other observations

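The response element core TGATGNAA was also counted in the promoter windows of the neighbouring lists. It was held by 5 of 9 synthetase and tRNA export genes with a window (Aars, Gars, Iars, Tars and Yars), by 3 of 11 ATF4-related factor genes (Atf3, Jdp2 and Nupr1) and by 2 of 12 other transporter genes (Slc1a4 and Slc7a7). It was held by 2 of 12 enzyme genes (Got1 and Pycr1), by 2 of 9 stress output genes (Fgf21 and Vldlr), by 1 of 18 genes of the ATF6 and XBP1 arm (Herpud1), and by 0 of 12 eIF2 genes and 0 of 7 glutathione genes, beside 4.51% of all 27025 genes with a window. Fgf21 was not tested, and the others named here did not pass the edgeR threshold. Slc7a1, Ddit4 and Ggct, which were called, had windows without these letters. Slc1a5, Gcn1l1 and Impact, also called, were not among the genes with a match, and whether each had a window is not given here. The genes in brackets are named because they matched.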
